A study of Mus musculus with 4 samples.

Results

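The regions described here were open, by the authors' peak calls, in both libraries from Sphk2 knockout (Sphk2 KO) suppressor cells and in neither wild-type (WT) library, and they lay on autosomes other than chromosome 7, which carries Sphk2. Members were chosen by the presence of peak calls: autosomal peaks of the 4 deposited lists were joined wherever they overlapped by 1 bp or more, which gave 44742 regions, 42144 of them outside chromosome 7. Of these, 244 met the rule and are called Sphk2 KO-only regions. They made 0.579% of all regions outside chromosome 7, and 1.49% of the 16343 regions there with a peak in both Sphk2 KO libraries. The reversed rule, which asks for both WT calls and no Sphk2 KO call, was met by 2309 regions, or 5.48% of all regions and 11.0% of those with a peak in both WT libraries. Since presence and absence of calls chose the members, these shares are given as a description and carry no test. The count of members rested on all 4 libraries: it was 3971 without Sphk2 KO replicate 1, 1920 without Sphk2 KO replicate 2, 447 without WT replicate 1 and 638 without WT replicate 2, since 1 library then stood for its group. WT-only regions numbered between 2545 and 8811 with a library left out. Lists of equal length, the best 20412 peaks each, gave 461 Sphk2 KO-only and 887 WT-only regions.

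The cells were myeloid-derived suppressor cells (MDSCs), sorted as Gr1+CD11b+ from the ascitic fluid of mice that had received EL4, a T cell lymphoma line of the mouse, 14 days earlier. Tumour-bearing Sphk2 KO mice gave 2 libraries and tumour-bearing WT mice gave 2 libraries, so EL4 injection was common to both groups. Each library was made by ATAC-seq, in which the transposase Tn5 inserts adapters into open DNA, from 20000 cells. Per the labels these are biological replicates, but no animal is named for any of them, so spread between libraries may be technical. The labels give no strain, age, sex or structure of the Sphk2 allele.

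Sphk2 encodes sphingosine kinase 2, which phosphorylates sphingosine to the signalling lipid sphingosine 1-phosphate and is known to act in the nucleus as well as in the cytoplasm. MDSCs are immature neutrophil-like and monocyte-like cells that restrain T cells in tumours. Open chromatin at gene starts is shared by many cell types, whereas open regions inside and between genes include enhancers, which differ more between cell types and states. A peak call reports that fragments piled up above the local background of its own library. A missing call says only that the threshold was not reached.

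The Sphk2 KO libraries held fewer fragments and fewer calls than the WT libraries. After removal of duplicates, Sphk2 KO replicates 1 and 2 held 25877428 and 27686223 fragments and 20759 and 27446 peaks. WT replicates 1 and 2 held 33859480 and 34443062 fragments and 31507 and 31843 peaks. The mean number of peaks was 24102.5 ± 4728 in Sphk2 KO and 31675 ± 238 in WT (SD, n = 2 each), and the groups did not overlap. The median fold enrichment over local background was 6.03 and 6.01 in the Sphk2 KO libraries and 5.16 and 5.11 in the WT libraries. Depth and enrichment thus moved with genotype, and their part in which regions were called in Sphk2 KO alone was not tested. At Sphk2 itself, 2 peaks were called in each Sphk2 KO library and 1 in each WT library, so the lists do not show which part of the gene was removed. In bulk samples such as these, fewer cells of a type and less signal per cell cannot be told apart.

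A small number of Sphk2 KO-only regions lay over the start of a gene, and the sequence before the start is shown for 5 of them. The bases are RefSeq's (GRCm38.p6, the mm10 assembly), the 250 bases before the annotated start, written 5′ to 3′ on the strand of the gene. Capitals mark matches, on either strand, to the core sites of PU.1 (GAGGAA), C/EBP (TTGCNNAA), AP-1 (TGANTCA) and RUNX (TGTGGT), and to the GC box (GGGCGG) and the TATA box (TATAAA). Gm32016 is shown because the second-best member covered its start. Ltf is a granule gene of neutrophils, Crispld2 and Fmo5 had a −log10 q above 5 in both Sphk2 KO libraries, and the F2r window held both an AP-1 and a RUNX match. The Fmo5 member lay at a start inside the gene, 18843 bp from the gene's nearer end.
Gm32016, a long noncoding RNA gene (chr9:47939166-47939415, + strand): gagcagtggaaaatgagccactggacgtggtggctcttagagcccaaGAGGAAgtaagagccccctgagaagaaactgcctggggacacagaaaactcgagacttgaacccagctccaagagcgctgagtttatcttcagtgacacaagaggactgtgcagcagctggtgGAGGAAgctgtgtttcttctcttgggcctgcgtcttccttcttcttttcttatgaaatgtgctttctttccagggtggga
Ltf, lactoferrin (chr9:111019042-111019291, + strand): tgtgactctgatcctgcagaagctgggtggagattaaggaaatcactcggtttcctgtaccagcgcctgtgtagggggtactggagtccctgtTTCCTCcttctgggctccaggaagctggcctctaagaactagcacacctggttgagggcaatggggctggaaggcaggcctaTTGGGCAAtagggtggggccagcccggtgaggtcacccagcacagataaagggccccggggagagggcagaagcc
Crispld2, a secreted protein of the CAP family (chr8:119992188-119992437, + strand): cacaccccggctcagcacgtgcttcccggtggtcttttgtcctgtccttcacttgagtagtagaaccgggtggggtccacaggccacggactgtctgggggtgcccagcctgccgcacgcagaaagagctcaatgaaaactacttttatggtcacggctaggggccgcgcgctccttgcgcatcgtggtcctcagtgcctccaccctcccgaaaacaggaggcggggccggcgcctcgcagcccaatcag
Fmo5, a flavin-containing monooxygenase (chr3:97628769-97629018, + strand): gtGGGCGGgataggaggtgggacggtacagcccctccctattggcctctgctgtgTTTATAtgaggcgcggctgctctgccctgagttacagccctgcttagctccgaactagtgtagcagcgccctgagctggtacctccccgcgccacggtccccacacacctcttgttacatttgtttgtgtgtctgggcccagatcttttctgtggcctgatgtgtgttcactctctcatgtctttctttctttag
F2r, the thrombin receptor PAR1 (chr13:95618467-95618716, − strand): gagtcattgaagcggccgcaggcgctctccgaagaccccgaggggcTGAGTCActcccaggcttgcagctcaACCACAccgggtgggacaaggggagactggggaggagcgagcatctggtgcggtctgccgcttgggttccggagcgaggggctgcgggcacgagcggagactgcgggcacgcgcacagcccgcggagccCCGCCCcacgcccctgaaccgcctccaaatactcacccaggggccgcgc
The Ltf window held a PU.1 core and a C/EBP match, the Gm32016 window held 2 PU.1 cores, the Fmo5 window held a GC box and a TATA box, and the Crispld2 window held none of the 6 motifs.

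Few annotated gene starts lay under members, and their count is a minimum. The starts used here included none on chromosome 18 and none for some genes elsewhere, such as Fn3k and Lst1. Of the 244 members, 15 overlapped a window that runs from 250 bases before to 50 bases after an annotated start, at 15 genes, of which 10 were protein-coding: Ltf, Crispld2, Fmo5, F2r, Agbl2, Tcte2, Nol4l, Nek6, Bex6 and Grik4. These 15 genes gave 16 windows, because Nek6 had 2 starts. At Fmo5, Nol4l and Nek6 the start lay inside the gene, away from its ends. The peak summit lay inside 9 of the 16 windows. It was 145 bp before the start of Ltf, 4 bp before that of Crispld2, 238 bp before that of Fmo5 and 37 bp before that of F2r, and it lay at -264 from the start of Gm32016, in the same count with upstream negative. The PU.1 core was found in 6 of the 16 sequences and in 23.3% of all 32851 promoter sequences of the same length. The C/EBP match was in 2 of 16 and in 9.56% of all, AP-1 in 1 of 16 and 6.75%, and RUNX in 3 of 16 and 14.0%. The GC box was in 7 of 16 and 32.7%, and the TATA box in 3 of 16 and 12.4%. The median number of CpG dinucleotides was 12.5 in the 16 windows, against 9 in windows under WT-only regions, 18 under regions called in all 4 libraries and 6 over all promoters outside chromosome 7. With 16 windows these counts describe the sequences and carry no test.

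Strength of the calls chose the members in part and is described here without a test. The authors' −log10 q, a measure of how far a peak stood above its local background, had a median of 3.65 in Sphk2 KO replicate 1 (1.40 to 17.5) and of 5.15 in Sphk2 KO replicate 2 (1.36 to 33.6). Regions called in all 4 libraries had medians of 21.4 and 43.5 in the same 2 libraries. The members were therefore mostly weak calls. In both Sphk2 KO libraries 146 members (59.8%) reached a −log10 q of 3, 55 (22.5%) reached 5 and 6 (2.46%) reached 10. The last count was 14 with a minimum −log10 q of 5 for every peak, 21 with lists of equal length and 30 with windows of 250 bp around summits. It was 4 where a WT peak within 500 bp counted as presence, 34 without WT replicate 1 and 43 without WT replicate 2. In the remaining library, 200 reached 10 without Sphk2 KO replicate 1 and 9 without Sphk2 KO replicate 2. Replicate 2 gave the higher value at 178 members (73.0%), and Spearman's rho between the libraries was 0.54 over the 244 members, which share libraries and local background and give no p. At the median member, 15 and 20 fragments piled up under the summit in replicates 1 and 2, the enrichment was 3.51-fold and 3.58-fold, and the region was 460 bp wide (209 to 1209), against 962 bp for regions called in all 4 libraries. The summits of the 2 Sphk2 KO peaks lay within 150 bp of each other at 174 members (71.3%).

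**Figure D1:**
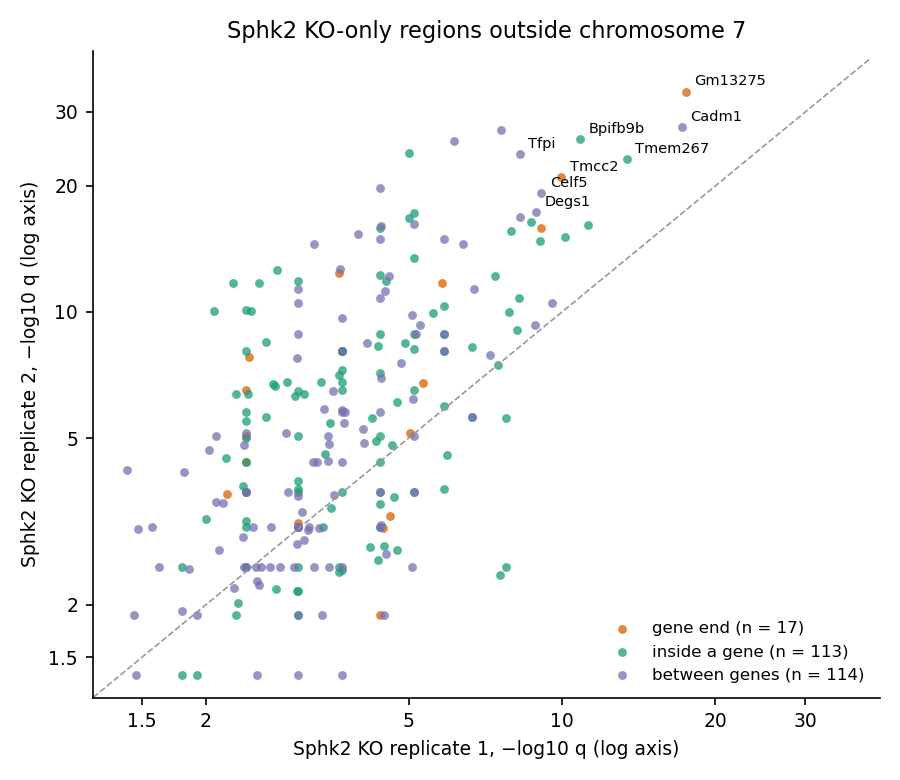
Each point is a Sphk2 KO-only region outside chromosome 7, placed by the authors' −log10 q in Sphk2 KO replicate 1 (horizontal) and replicate 2 (vertical), both on log axes, with the dashed line marking equal values and colours marking position relative to protein-coding genes. Of 244 points 178 lie above the line, and Gm13275 and Cadm1 lie farthest to the upper right.

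Among regions with a peak in both Sphk2 KO libraries, the weakest calls were those most often without a WT peak. Where the weaker of the 2 Sphk2 KO calls had a −log10 q under 3, 98 of 485 regions (20.2%, exact binomial 95% interval 16.7 to 24.1%) were Sphk2 KO-only. The share was 7.05% (91 of 1291) from 3 to under 5 and 1.64% (49 of 2984) from 5 to under 10. It was 0.0518% (6 of 11583) at 10 and above. The intervals here and below cover counting error only, since regions of the same 4 libraries are not replicates.

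**Figure D2:**
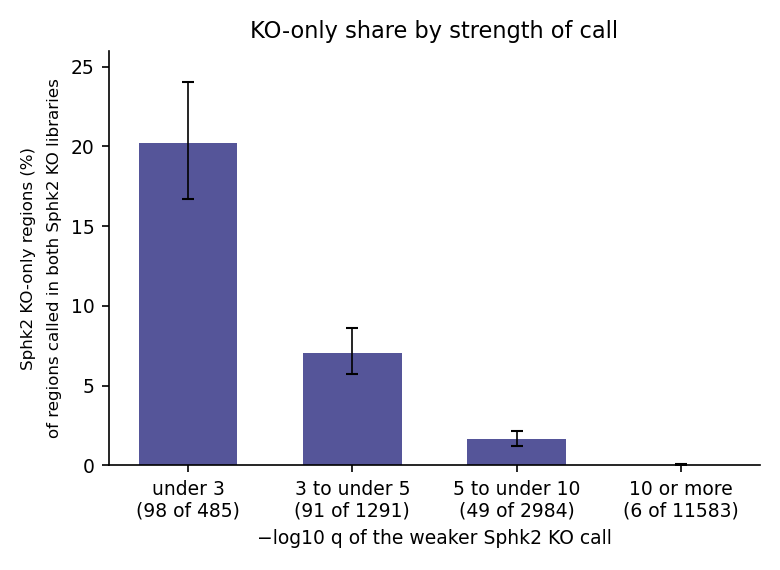
Bars give the share of regions called in both Sphk2 KO libraries, outside chromosome 7, that had no WT peak, by the −log10 q of the weaker Sphk2 KO call. Error bars are exact binomial 95% intervals, and the share runs from 20.2% in the weakest class to 0.0518% in the strongest.

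The 6 members that reached 10 in both libraries lay at Gm13275, Cadm1, Tmem267, Bpifb9b, Asap1 and Synj2. Gm13275, the gene of the first-ranked member, is a protein-coding gene in the chromosome 4 cluster of type I interferon genes, between copies of a family that includes Ifnz (interferon zeta). Its region (chr4:88794012-88794543) lay inside the short gene, 754 bp from the annotated start, with −log10 q values of 17.5 and 33.6, and the nearest WT peak was 5329 bp away. No other region of any kind was assigned to Gm13275. Neighbouring genes in this cluster are near copies, and the sources used here do not say how reads with several placements were treated, so the assignment to this copy is uncertain. The second member (chr9:47939026-47939570, values 17.2 and 27.6) lay 76872 bp from the nearest end of Cadm1, an adhesion molecule gene, and covered the start of the noncoding gene Gm32016 whose sequence is given above. The next WT peak was 45537 bp from it, in a region 30928 bp from Cadm1 that was called in all 4 libraries. That region had −log10 q of 13.5 and 35.1 in Sphk2 KO and 55.6 and 82.0 in WT.

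The Tmem267 region (13.4 and 23.1), inside a gene for a transmembrane protein, and the Synj2 region (10.1 and 15.1), inside the gene of the inositol phosphatase synaptojanin 2, had a WT peak 354 and 385 bp away. Both were lost where a WT peak within 500 bp counted as presence. Of the 6 alternatives in processing, the other 5 kept them. The Bpifb9b region (10.8 and 25.9) lay inside this gene of the BPI fold family and also inside Cdk5rap1, and its nearest WT peak was 57937 bp away. Asap1, which encodes an activator of the GTPase activity of Arf proteins, held its member (11.2 and 16.1) 9579 bp from its end. That gene had 25 assigned regions, 10 of them with a call in every library.

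**Figure D3:**
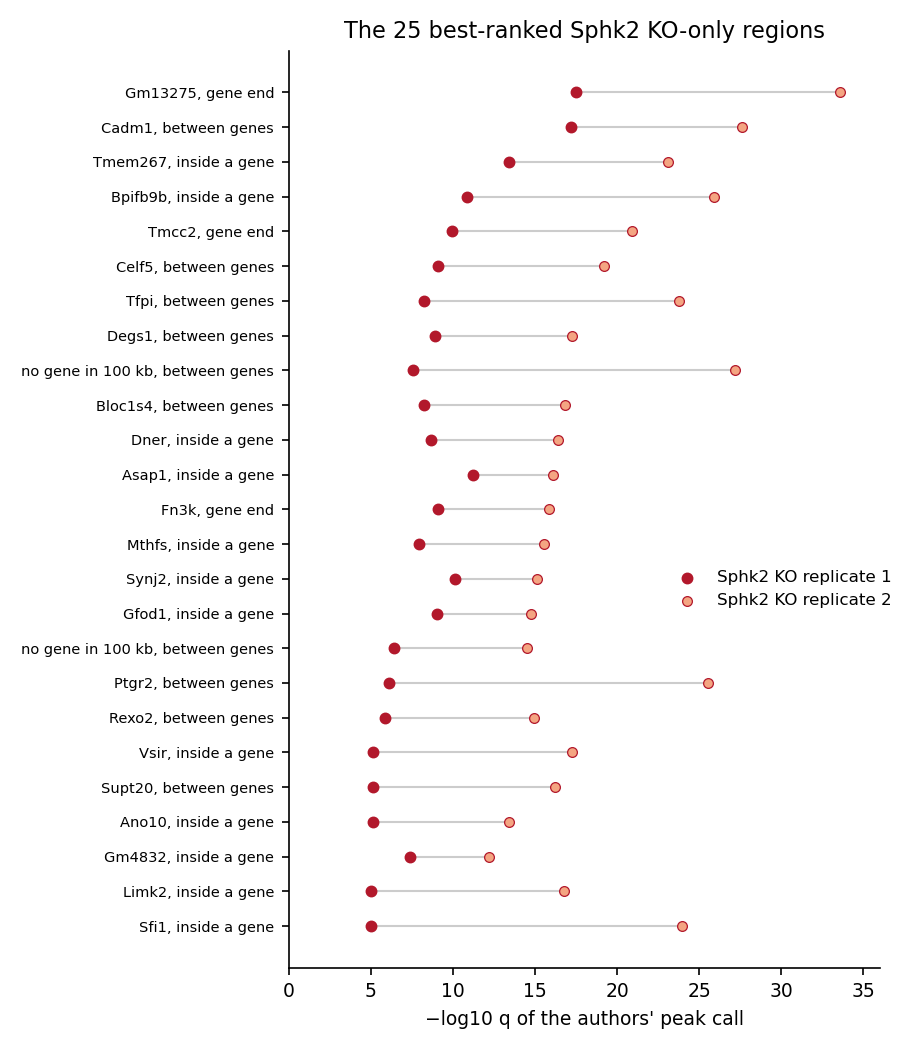
Dots give the authors' −log10 q in Sphk2 KO replicates 1 and 2 for the 25 best-ranked Sphk2 KO-only regions, named by host or nearest gene and position. Gm13275 leads in both libraries, with 17.5 and 33.6, and every region shown has the higher value in replicate 2.

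Further down the order, members lay near genes of varied function. Ranks 5 to 10 were at Tmcc2 (10.0 and 20.9), a coiled-coil membrane protein gene, Celf5 (9.11 and 19.2), a regulator of splicing, and Tfpi (8.27 and 23.8), which encodes the inhibitor of the tissue factor pathway of clotting. They went on with Degs1, the dihydroceramide desaturase gene of sphingolipid synthesis (8.89 and 17.3), a region with no protein-coding gene within 100 kb (7.60 and 27.2), and Bloc1s4 (8.27 and 16.8), which encodes a subunit of a complex for lysosome-related organelles. The Celf5, Tfpi, Degs1 and Bloc1s4 regions lay between genes, 8899, 28416, 8082 and 18877 bp from the named gene's end. Ranks 11 to 20 included Dner, a Notch ligand gene, Fn3k, a kinase gene that reverses protein glycation, Mthfs, an enzyme gene of folate metabolism, Gfod1, Ptgr2, a prostaglandin reductase gene, and Rexo2, a mitochondrial oligoribonuclease gene. Their −log10 q was between 5.87 and 9.11 in Sphk2 KO replicate 1 and between 14.7 and 25.5 in replicate 2. Supt20, Ano10, Gm4832, Limk2, Elof1, Stk17b, Lmntd1 and Krt80 were among ranks 21 to 30. Limk2 encodes a kinase of the actin regulator cofilin, and Stk17b a kinase of the death-associated family.

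A few members stood on tall pileups with little enrichment. The region in Sfi1, a centrosome protein gene, had 167 and 255 fragments under its summits in Sphk2 KO replicates 1 and 2, the highest of all members, but an enrichment of 1.56-fold and 2.13-fold. The Il1r2 regions had 81 and 154 fragments (1.98-fold and 1.87-fold) and 61 and 106 fragments (2.09-fold and 1.84-fold). The pileup is not scaled to depth. At these positions the surrounding 10 kb was itself covered deeply, and the call rested on a small excess over it. As for Gm13275, the placement of the Sfi1 and Mthfs regions is uncertain, because the treatment of reads with several placements is unknown.

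Most members lay away from the ends of genes. A gene end, meaning a summit within 1 kb of either end of a protein-coding gene, was found for 17 of 244 members (6.97%, 4.11 to 10.9%). Another 113 (46.3%, 39.9 to 52.8%) lay inside a gene and 114 (46.7%, 40.3 to 53.2%) between genes. For comparison, gene ends took 12.4% of the 587 regions called in both Sphk2 KO libraries and 1 WT library, 11.1% of WT-only regions and 44.7% of the 15512 regions called in all 4 libraries. No protein-coding gene lay within 100 kb of 47 members (19.3%, 14.5 to 24.8%), against 11.9% of the regions with 1 WT call, 13.2% of WT-only regions and 2.97% of regions called in all 4. With calls of every strength included, the members' intervals did not overlap those of regions called in all 4 libraries for any of these classes. For gene ends the members' interval overlapped that of WT-only regions (9.83 to 12.4%). The gene-end share was 13.9% with lists of equal length, 14.1% when every peak needed a −log10 q of 5, and 3.85% without Sphk2 KO replicate 2. Without that replicate 26.4% lay inside a gene.

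Since the strength of calls differed between the sets, the classes were also compared among regions whose weaker Sphk2 KO call had a −log10 q under 5. Gene ends then took 5.82% of 189 members, 11.4% of 332 regions with 1 WT call and 24.9% of 1255 regions called in all 4 libraries. Between genes lay 48.7%, 40.4% and 34.3% of the same sets, and 23.3%, 14.8% and 5.74% had no gene within 100 kb. Inside genes lay 45.5% (38.3 to 52.9%) of the members, 48.2% of the regions with 1 WT call and 40.7% (38.0 to 43.5%) of those called in all 4 libraries. For this class the intervals of members and regions called in all 4 overlapped below the limit of 5. Strength was capped but not matched here. The weaker Sphk2 KO call was under 3 at 98 of the 189 members, 119 of the 332 regions with 1 WT call and 268 of the 1255 called in all 4. Host genes of members were long, with a median length of 83385 bp, against 79684 bp for WT-only regions and 43965 bp for regions called in all 4. The median member lay 18910.5 bp from the nearest gene end. In all, 52 members lay inside genes longer than 100 kb, among them Pcdh15, Lrrc4c, Galntl6 and Cntn4, genes of neural adhesion proteins or, for Galntl6, of a glycosyltransferase.

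**Figure D4:**
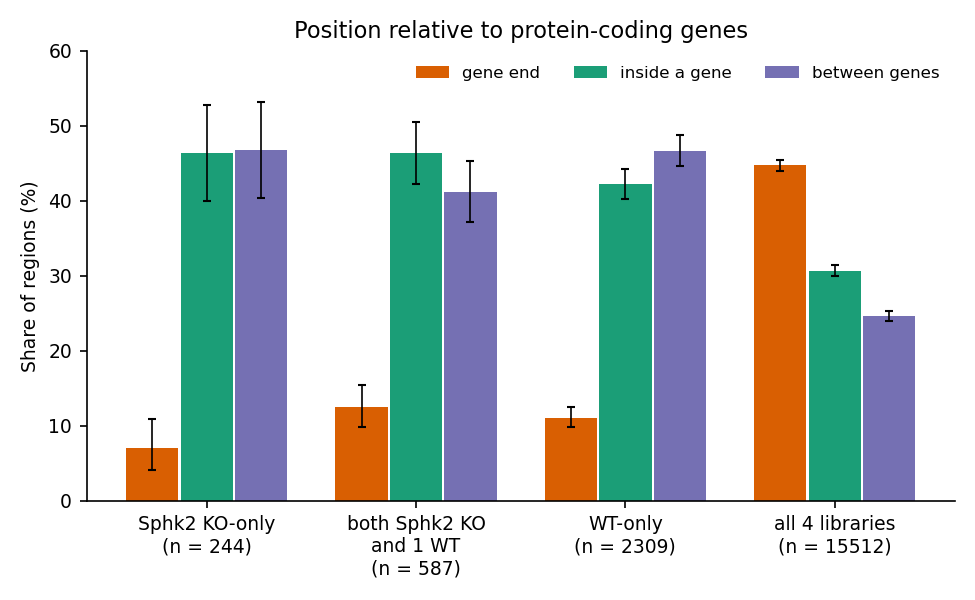
Bars give the share of regions at a gene end, inside a gene and between genes for Sphk2 KO-only regions and 3 comparison sets outside chromosome 7, with exact binomial 95% intervals as error bars. Sphk2 KO-only regions have 6.97% at gene ends and regions called in all 4 libraries 44.7%.

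The 17 members at gene ends were mostly weak. Their median −log10 q was 4.39 and 5.15 in Sphk2 KO replicates 1 and 2, and 6 reached 5 in both: Gm13275, Tmcc2, Fn3k, Clcf1, Bex6 and Crispld2. By the RefSeq start sites, the nearer end was the start for 8 (Gm13275, Bex6, Crispld2, Ltf, Grik4, Agbl2, F2r and, inside Afdn, Tcte2) and the far end for 2 (Tmcc2 and Gm4736). The Gm13275 gene is 1556 bp long, so its member, 754 bp from the start, lay near the middle of the gene. For Fn3k, Clcf1, Lmnb1, H60b, Ripply3, Gngt2 and Lst1 the set of annotated starts used here held no start, so which end it was is left unknown. The Crispld2 start (5.03 and 5.15) had no WT peak within 23601 bp, while 5 regions inside that gene were called in all 4 libraries. The Clcf1 region (5.82 and 11.7), at a gene for a cytokine of the interleukin 6 family, had a WT peak 192 bp away. Lmnb1, the lamin B1 gene (3.64 and 12.4), and Gngt2, a G protein subunit gene (4.60 and 3.27), had WT peaks 1699 and 1300 bp away.

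Ltf and F2r showed how low such calls could be. Ltf had −log10 q of 2.43 and 7.80, with 14 and 24 fragments at the summit. F2r had 4.39 and 1.89, with 15 and 12 fragments. Both genes also had regions called in all 4 libraries, 2 at Ltf and 1 at F2r. The Ltf locus carried, besides its Sphk2 KO-only start, a WT-only region 4659 bp from its nearer end (−log10 q 2.85 and 6.86 in WT). Agbl2, a tubulin deglutamylase gene (2.39 and 5.07), and Fmo5 (6.65 and 5.61) had no other region in any library.

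Genes of 30 lists of function and cell type, 586 genes in all, were hosts or nearest genes of 19 members (7.79%, 4.75 to 11.9%). The corresponding shares were 7.58% of WT-only regions and 7.07% of regions called in all 4 libraries, so the members' share was near that of the other sets. Members were found at 11 lists and absent from 19.

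Among granulocytic markers, 2 of 20 genes had members, Ltf and Il1r2, while 189 of the 18635 protein-coding genes on the same autosomes (1.01%) had one. In this list 4 genes had WT-only regions and 17 had regions called in all 4 libraries. Il1r2 encodes the decoy receptor that neutrophils use to bind interleukin 1, and it held 2 members, inside the gene. The first (chr1:40095025-40095817) had −log10 q of 5.59 and 9.92 and the other (chr1:40113056-40113456) of 4.75 and 6.10, with the nearest WT peaks 1167 and 2005 bp away. The locus carried many calls in both genotypes. Of 20 regions assigned to Il1r2, 9 were called in all 4 libraries, 3 in both Sphk2 KO libraries and 1 WT library, and 1 in WT alone. The region at the start of Il1r2, called in every library, had −log10 q of 76.0 and 116 in Sphk2 KO and 69.4 and 97.4 in WT.

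Among genes of suppressor function, Vsir encodes the checkpoint protein VISTA. Its member (5.12 and 17.2) also lay inside the overlapping gene Cdh23, and 8 of 14 regions at Vsir were called in all 4 libraries. Inflammatory cytokine genes had a member at 1 of 24 genes. It lay 37226 bp from Il1b, the interleukin 1 beta gene, with −log10 q of 3.26 and 14.5, in a stretch where 7 regions assigned to Il1b were called in all 4 libraries. Next to it, a region 39403 bp from Il1b had −log10 q of 21.9 and 39.7 in Sphk2 KO and 51.9 and 38.6 in WT. The chemokine list had a member near Ccl6 (2.16 and 3.50).

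Lipid genes held 3 members. Degs1 was the only member gene of 31 sphingolipid enzymes. Its region lay 8082 bp from the gene, beside a Degs1 gene-end region called in all 4 libraries with −log10 q of 28.1 and 66.3 in Sphk2 KO and 43.8 and 65.2 in WT. Pisd, whose product makes phosphatidylethanolamine in mitochondria, was the member gene of 31 phospholipid enzymes (2.09 and 5.07). Pparg, a nuclear receptor of lipid metabolism, was that of 23 fatty acid oxidation and uptake genes (2.39 and 2.47). Genes of sphingosine 1-phosphate receptors and transporters, fatty acid synthesis, triacylglycerol and lipid droplets, and cholesterol had 0 members.

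Regulators of small GTPases and the cytoskeleton had 6 members at 5 of 50 genes, the most of any list, which was also the longest list. Besides Asap1 these were Sipa1l1, a Rap regulator (5.12 and 8.86, and 3.52 and 3.40), Arhgap25, a Rac regulator of phagocytes (2.39 and 5.01), Dock10, an exchange factor for Cdc42 and Rac (3.03 and 3.71), and Iqgap2, a scaffold protein gene (5.12 and 3.71). In the same list 33 WT-only regions lay at 21 genes and 188 regions called in all 4 libraries at 37. Of 43 myeloid transcription factors Runx1 alone had a member, at 1.80 and 2.47, against 4 WT-only regions and 12 called in all 4 libraries at Runx1. The adhesion list had Cadm1 and the housekeeping list Actg1 (2.37 and 4.80). Type I interferon response, MHC class II and costimulation, cell cycle, BCL2 family, chromatin acetylation, and glycolysis and hypoxia genes had 0 members. So had the sort markers, genes silent in blood, and markers of monocytic, macrophage, dendritic, T, B, NK and erythroid cells. The sort-marker, B cell and silent lists also had 0 WT-only regions and 0 regions called in all 4 libraries, so their 0 members carry no information. List genes on chromosome 7 could hold no member by the rule. With a member at 1.01% of protein-coding genes, 0 says little for lists this short.

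The 197 members with a gene were spread over 189 genes, and 8 genes had 2 members each: Il1r2, Sipa1l1, Babam2, Foxp1, Nos1ap, Stac, Supt20 and Tmem202. The pair in Tmem202 lay 425 bp apart (4.35 and 8.30, and 7.49 and 7.48), and that in Stac, an adaptor protein gene, 6189 bp apart. Foxp1 encodes a forkhead transcription factor. Its 2 members (2.39 and 4.38, and 4.39 and 3.47) were among 38 regions at Foxp1, 13 of them called in every library. Babam2, a subunit gene of a BRCA1 complex, held members of 5.87 and 8.06 and of 3.70 and 8.06. Most genes of members had other open regions: 142 of 189 (75.1%) had at least 1 region called in all 4 libraries, 52 of the 189 (27.5%) had a WT-only region, and 13 (6.88%) had no other region. The same shares for other genes were not computed, so these are a description only.

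WT peaks often lay near. The median distance from a member to the nearest WT peak was 6113 bp, 26 members (10.7%) had one within 500 bp, 109 (44.7%) within 5 kb, and 15 (6.15%) had none within 50 kb, up to 127822 bp. At the edge of the rule, 6 members shared the lowest value of the weaker call, 1.36 in Sphk2 KO replicate 2. The weakest of them in replicate 1 were a region on chromosome 9 with no protein-coding gene within 100 kb (1.46 and 1.36) and those inside Lrrc4c (1.80 and 1.36) and Ppfia2 (1.93 and 1.36). Just outside were regions with 1 WT call barely past the threshold. These were Srgn, the serglycin gene of granule proteoglycan (5.12 and 10.4 in Sphk2 KO, 1.30 in WT replicate 1), Kcnip4 (3.70 and 2.47 in Sphk2 KO, 1.31 in WT replicate 2) and Mfsd13a (3.77 and 6.45 in Sphk2 KO, 1.36 in WT replicate 2). Of the 587 regions with 1 WT call, 67 (11.4%) had a WT −log10 q of at most 3. By distance, the members nearest to a WT peak lay 43 bp from it on chromosome 3, 47 bp at Nubpl and 61 bp at the weakest member on chromosome 9.

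Noncoding genes were also covered. Members overlapped long noncoding RNA genes at 20 regions, among them Gm32016, Gm34607, with a summit at -51 from its start in a region near Raet1d, and Morrbid, which is known to control the lifespan of short-lived myeloid cells. The matching share of all regions was not computed, so this count is a description only. The Morrbid region had no protein-coding gene within 100 kb. A pair of members lay within the immunoglobulin heavy chain locus on chromosome 12, with −log10 q of 6.40 and 14.5 at the stronger. The member in Map4k2, a kinase gene of the MAP kinase cascade (5.87 and 3.78), overlapped a microRNA gene, and the mature product of its 3′ arm lay within the region.
mmu-miR-6989-3p, seed (bases 2 to 8) in capitals (chr19:6346523-6346544, + strand): uGUCCACUgucucuggucccag
Its level in these cells was not measured by peak lists.

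Members were found on every autosome examined. As a share of the regions called in both Sphk2 KO libraries, they ran between 0.737% on chromosome 4 (8 of 1086, 0.319 to 1.45%) and 2.34% on chromosome 12 (16 of 685, 1.34 to 3.77%), and these intervals overlapped narrowly. Chromosome 7, left out by the rule, stood at 2.38% (29 of 1217, 1.60 to 3.40%), and its 29 Sphk2 KO-only regions made 1.12% of all 2598 regions there. The members outside chromosome 7 were weaker than those on it. Their median −log10 q was 3.65 and 5.15, against 6.22 and 13.1 on chromosome 7, and their highest 17.5 and 33.6, against 80.8 and 140.

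**Figure D5:**
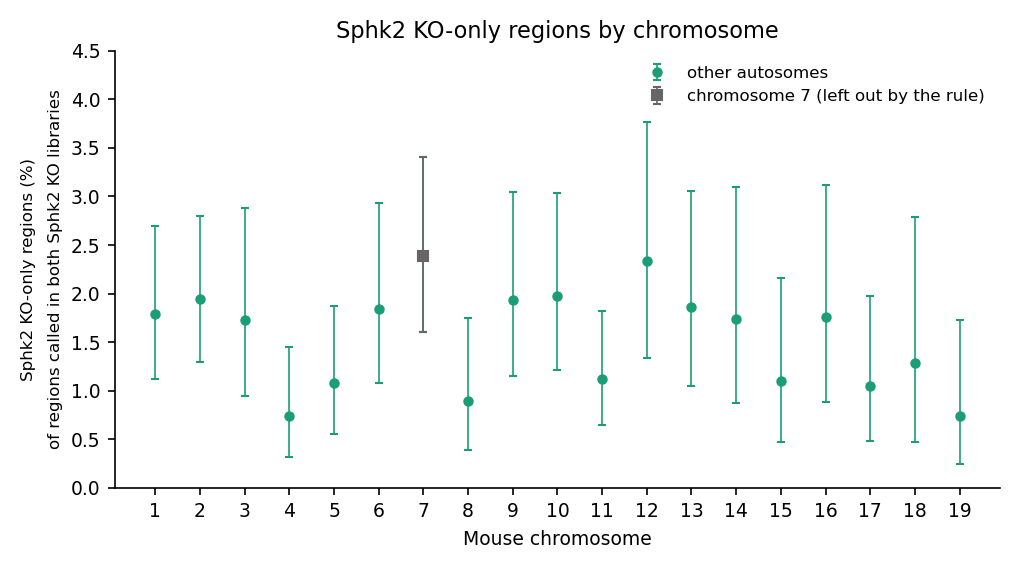
Points give, for each autosome, the share of regions called in both Sphk2 KO libraries that had no WT peak, with exact binomial 95% intervals. Outside chromosome 7 (grey square, 2.38%) the share is lowest on chromosome 4 and highest on chromosome 12, at 0.737% and 2.34%.

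The labelled cell type was checked by counting autosomal marker genes whose ends, within 1 kb, carried a peak. Itgam, the CD11b gene, had one in all 4 libraries, and Ly6c2, a Gr1 antigen gene, lacked one in Sphk2 KO replicate 1 alone. Ly6g and Ly6c1, the other genes of the sort-marker list, had none in any library. Of 20 granulocytic markers 14 and 16 had one in the Sphk2 KO libraries and 14 in each WT library. Of 13 monocytic markers 4 and 5 had one in Sphk2 KO, and 7 and 8 in WT. Dendritic cell markers stood at 1 and 5 of 8 genes in Sphk2 KO and 5 and 5 in WT, macrophage markers at 1 and 1 of 7 in Sphk2 KO and 3 and 3 in WT. T cell markers, which host T cells or EL4 cells could carry, stood at 3 and 3 of 18 genes in Sphk2 KO and 4 and 9 in WT. B and NK cell markers had none. Counts for the monocytic and macrophage lists, of 13 and 7 genes, were thus lower in each Sphk2 KO library than in either WT library. The Sphk2 KO libraries also had fewer peaks in total, 20759 and 27446 against 31507 and 31843 in WT. Of 19 housekeeping genes, 16 and 18 carried such a peak in Sphk2 KO and 17 in each WT library. A matching share for all genes is not given here, so no difference in monocytic or macrophage cells is read from these short lists. The part of cell makeup in the members was not tested.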

How the data were processed

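ATAC-seq peak lists of 4 libraries (Sphk2 KO and WT, 2 each) were used as deposited. The submitters' processing notes name cutadapt, BWA, MACS2 and the build mm10. Per the file headers, the authors called peaks per library with MACS 2.1.1.20160309, without a control. Settings were an effective genome size of 1.87e+09, a q-value of 0.05, a local background of 10 kb and 1 fragment kept per position. These sources do not say whether Tn5 offsets were corrected. The deposited columns are a pileup (coverage signal, unscaled), −log10 of p and q, and fold enrichment, a ratio to local background. These are the authors' values, used here for description, ranking and filtering inside a list.

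Peaks were merged and placed with Python 3.11.15, pandas 2.3.3, numpy 2.4.6 and scipy 1.17.1, and the merging was tested on simulated data. Genes and starts came from RefSeq for GRCm38.p6. A region was named by its host gene, otherwise by the nearest gene end within 100 kb, and 3 members lay inside more than 1 gene. Genes named were those of the 30 best-ranked members (by the worse of 2 ranks), of gene-end members, of list genes, with 2 members, or at the edges of the rule. Others were chosen after their values were seen. A gene that the rule would name is not reported here. Members and lists were chosen with earlier results of these data known. Intervals are exact binomial (Clopper-Pearson). Alternatives changed the q threshold, list length, windows, overlap, gene-end distance and the libraries used.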

Additional observations from a re-analysis of the deposited data

How the results depend on the processing

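The count of Sphk2 KO-only regions depended on how presence was defined. It was 149 with a minimum −log10 q of 5 in all 4 libraries, 55 with that minimum for presence and any WT peak counted, and 461 with the top 20412 peaks of every library. Windows of 250 bp around summits, a WT peak within 500 bp and an overlap of 50% of the shorter peak gave between 218 and 306. With any 1 library left out it was between 447 and 3971, because 1 library then stood for its group: 3971 without Sphk2 KO replicate 1, 1920 without Sphk2 KO replicate 2, 447 without WT replicate 1 and 638 without WT replicate 2. Of the 244 members, 55, 55, 109, 231, 218 and 208 were kept in those 6 alternatives, in the same order, and 43 in every one of them, Gm13275, Cadm1, Bpifb9b, Asap1, Degs1 and Vsir included. The share at a gene end was 14.1% with the minimum in all libraries, 13.9% with lists of equal length, 11.4% with windows and 13.9% with gene ends taken to 2.5 kb, and between 3.85 and 10.0% with a library left out. The share inside a gene was between 42.2 and 49.1%, and between 26.4 and 47.5% with a library left out. Members that reached a −log10 q of 10 in both Sphk2 KO libraries numbered 14, 21 and 30 with the minimum in all libraries, equal lists and windows. They numbered 4 where a WT peak within 500 bp counted, and 6 with the minimum for presence only and with the 50% overlap. With a library left out they numbered between 9 and 200 (in the remaining library, where a Sphk2 KO library was dropped). WT-only regions numbered 1318 and 923 with the 2 uses of the minimum, 887 with equal lists, and between 2545 and 8811 with a library left out. With the minimum for presence only, no peak of the other genotype was removed, so those counts could only stay or fall. For the other shifts the cause was not tested. No paired analysis was possible because the results come from no test. Depth limits every absence: a WT region below the calling threshold counts as closed here, and no read counts per region were used.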
